A study of Bos taurus with 6 samples.

Results

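The interleukin and chemokine ligand genes were examined in MIRA-Seq libraries of bovine dermal fibroblasts, cells of the skin connective tissue grown in culture. In MIRA, methyl-CpG binding proteins pull down sonicated DNA, so a region gathers more reads the more methylated it is and the denser its CpG sites are, and the read number is called signal here and not methylation. The cultures came from 3 Holstein heifers, each biopsied at 5 and again at 16 months of age, with 1 library per animal and age, and all 6 libraries were made from passage 5 cells that had no treatment and no exposure to lipopolysaccharide (LPS). The animals had been picked from a larger collection because their cultures gave a middling IL8 response to LPS, all were heifers of 1 breed, and the cells were expanded in DMEM with 5% fetal bovine serum, so the cultures stand for animals of that kind only. Libraries held 19.9 to 43.6 M counted reads, with the fewest in the 5-month culture of animal 1 and the most in the 16-month culture of the same animal.

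Members were the windows of 3 kb on chromosomes 1 to 29 that the files label with a symbol of IL, CCL or CXCL followed by a number (IL symbols with at most 1 letter after it, which leaves out the receptors), together with the window upstream of each gene start. This gave 67 labelled places, or loci, with 66 symbols, of 24038 labelled loci on these chromosomes, and 373 of the 902984 windows of the genome. There were 38 interleukin loci, 19 CC chemokine loci and 10 CXC chemokine loci. IL6 was labelled at 2 places, on chromosome 4 from 31577805 to 31583804 and on chromosome 8 from 23286787 to 23289786. Both were kept, though the label on chromosome 8 may mark another gene. RefSeq (ARS-UCD2.0) held the symbols of 66 of the 67 loci, with IL8 under the name CXCL8, CXCL6 as a synonym of CXCL5, and IL17C without a match. Positions are those of the files, on UMD v3.1. The data hold no expression, so the labelled cell type could only be described by signal at the starts of marker genes, and the median was 0.0193 RPKM over 10 fibroblast markers, 0.0599 over 8 leukocyte markers, 0.162 over 6 keratinocyte markers and 0.0856 over 5 endothelial markers.

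Interleukins are secreted proteins by which leukocytes and tissue cells signal to each other, and chemokines are small secreted proteins that draw leukocytes along a gradient, named CC or CXC for the spacing of their first cysteines. Dermal fibroblasts sense LPS through TLR4, and NF-kappaB then switches on neutrophil-drawing chemokines such as IL8, monocyte-drawing chemokines such as CCL2, and the cytokines IL1A and IL6. Many of the genes are short, lie in families side by side on a chromosome and often have starts with few CpG sites.

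Signal was low at most of these genes and close to that of labelled genes in general. It is given as RPKM, a library's reads in a region over the region's length in kilobases and the library's matched reads in M, as the mean of 6 libraries. A start is the first labelled window on the gene's strand with the window upstream of it, and a body is the labelled windows after the first. The median start signal was 0.0674 RPKM over the 67 loci and 0.0545 RPKM over all 24033 labelled loci, and by library the median of the ligand genes ranged from 0.0323 to 0.0889 RPKM and that of all loci from 0.0323 to 0.0753 RPKM. The median body signal was 0.0837 RPKM over the 58 loci with a body and 0.0901 RPKM over 19867 labelled loci. High signal was scarcer among the ligand genes. At the limit of 0.5 RPKM that the study used to part high from low, 2 of 67 starts (2.99%) were above, against 9.26% of all starts, and 6 of 58 bodies (10.3%) were above, against 19.3% of all bodies. No test was made of these shares. The ligand genes are short, and 49 of the 67 loci span at most 3 windows. Among loci of at most 5 windows, the median start was 0.0685 RPKM for 56 ligand genes and 0.0619 RPKM for all. Among these short loci, 3.57% of ligand starts were above 0.5 RPKM, against 11.7% of all starts. For bodies of short loci the shares were 12.8% and 24.7%.

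Medians of the families lay on both sides of those of all labelled loci. Each rests on few loci, so it varies more by sampling than the median of all ligand loci, and no test was made of the families. The quartiles of all labelled starts were 0.0256 and 0.158 RPKM. The IL17 family, cytokines of barrier defence that draw neutrophils through epithelial and stromal cells, had a median start of 0.191 RPKM and a median body of 0.479 RPKM over its 6 loci. The IL10 family, which holds the anti-inflammatory IL10 and the skin-acting IL19, IL20, IL22, IL24 and IL26, had medians of 0.112 at starts and 0.181 RPKM at bodies. The lymphoid and type 2 cytokines (IL2, IL3, IL4, IL5, IL7, IL9, IL13, IL15 and IL21) had medians of 0.0433 and 0.0367 RPKM, and the IL1 family, alarm cytokines of damaged or infected tissue, had 0.0459 and 0.0348 RPKM. None of the 6 IL1 family bodies and 2 of 8 bodies of the lymphoid cytokines lay above the median body of all genes, while 5 of 6 IL17 family bodies did. A list of IL6, IL11, the IL12 and IL23 subunits, IL27 and IL34 had 0.0486 RPKM at its 8 starts and 0.115 RPKM at its 6 bodies.

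Among the chemokines, the inflammatory CC list had medians of 0.0882 RPKM at 12 starts and 0.146 RPKM at 10 bodies. The CC list of homing chemokines, which guide lymphocytes and dendritic cells to lymph nodes, skin or gut, had 0.0715 RPKM at 7 starts and 0.0786 RPKM at 5 bodies. The homing CXC list, with CXCL12, CXCL13, CXCL14, CXCL16 and CXCL17, had 0.136 and 0.131 RPKM. The neutrophil-drawing list held IL8, CXCL6 and CXCL2 and had the lowest medians of the chemokine lists at starts, 0.0179 RPKM, with 0.0431 RPKM at bodies. The interferon-induced CXCL9, CXCL10 and CXCL11 had a median start of 0.038 RPKM.

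Of the 67 loci, 41 lay in 14 clusters of members within 500 kb of each other, and levels ran together in some clusters and apart in others. On chromosome 16, IL10, IL19, IL20 and IL24 had starts of 0.341, 0.163, 0.0397 and 0.153 RPKM. On chromosome 19, CCL3, CCL4, CCL5, CCL14 and CCL16 had a median start of 0.136 RPKM, and CCL1, CCL2, CCL8 and CCL11 on the same chromosome had 0.0269 RPKM. IL1A, IL1B, IL36A and IL37 on chromosome 11 had a median start of 0.0329 RPKM and a median body of 0.0434 RPKM. IL2 and IL21 on chromosome 17 had the lowest cluster medians at starts, 0.0156 RPKM. Loci of a cluster share a chromosome region and are not independent of each other.

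**Figure D1:**
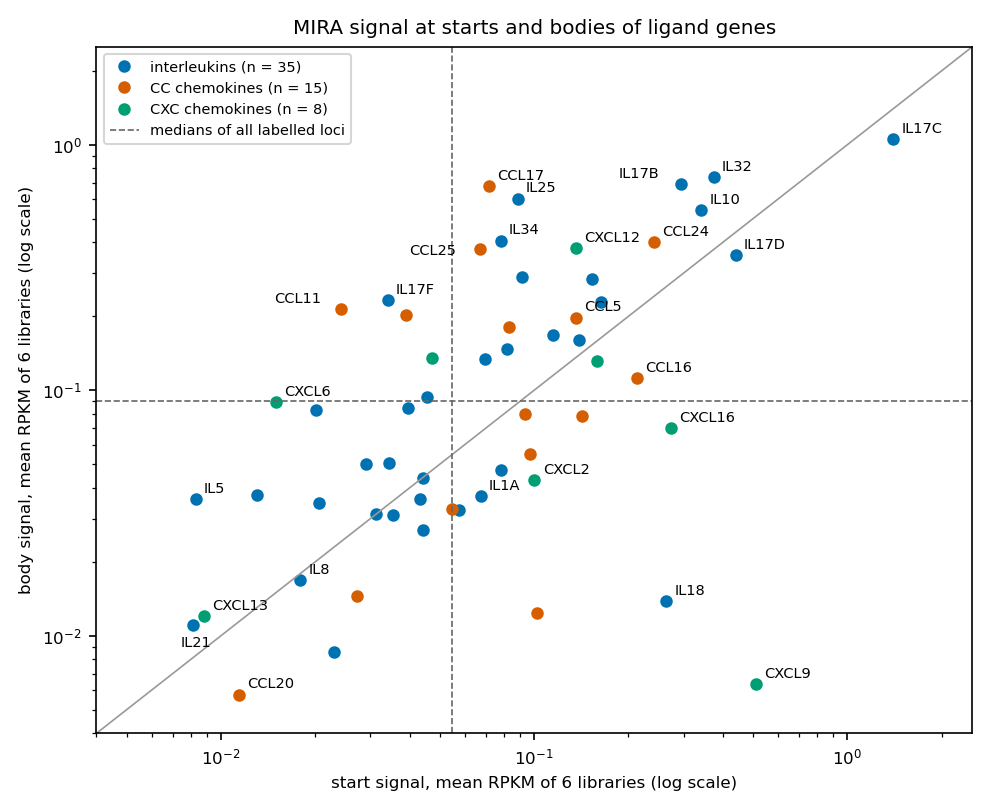
Mean start signal (x axis, RPKM, log scale) against mean body signal (y axis, RPKM, log scale) of the 58 ligand loci with a body, each point a locus and the mean of 6 libraries, with the diagonal in grey and the medians of all labelled loci as dashed lines. IL17C stands at the upper right, IL21, CXCL13 and CCL20 at the lower left, and CXCL9 and IL18 at the lower right with starts of 0.51 and 0.263 RPKM over bodies of 0.00637 and 0.0138 RPKM.

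A list of ligands that fibroblasts make in response to LPS had a start below the median of all labelled loci at 5 of 8 loci and above it at 3. The list took the ligands in the main LPS tables of the study, so it is no independent list. Of its 9 symbols, 7 were labelled here, at 8 loci with a median start of 0.031 RPKM. The 8 loci include the uncertain IL6 label on chromosome 8. CXCL1 and CXCL5 were not analysed here under those symbols. The supplement of the study also has CXCL6, a synonym of CXCL5 in RefSeq, and IL36A as raised by LPS. Neither was put in the list, so it is not complete. IL8, which draws neutrophils, had start signal, in animals 1, 2 and 3, of 0.00513, 0.0354 and 0.0106 RPKM at 5 months and of 0.0245, 0.00461 and 0.0274 RPKM at 16 months. These values rest on 1 to 11 reads per library, and the ages overlapped. CCL20, which draws dendritic cells and T cells, had 0, 0.0129 and 0.00799 RPKM in the 5-month cultures and 0.0122, 0.00461 and 0.0308 RPKM in the 16-month cultures. It was the lowest of the 8 starts, with at most 9 reads in a library.

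CCL2, which draws monocytes, had 0.0154, 0.0225 and 0.0373 RPKM at 5 months and 0.0367, 0 and 0.0479 RPKM at 16 months. IL6, a cytokine of fever and the acute phase, had 0.0103, 0.0547 and 0.0293 RPKM at 5 months and 0.0465, 0.0138 and 0.0581 RPKM at 16 months at its chromosome 4 place. The label of the same symbol on chromosome 8, which may mark another gene, lay at 0.023 ± 0.00902 RPKM (SD, n = 6 libraries). IL8, CCL20, CCL2 and both IL6 starts held too few reads to be tested by age. The lowest values of these starts came in the 5-month library of animal 1 and the 16-month library of animal 2. These have the fewest reads, though RPKM is already divided by matched reads. They also had the largest shares of counted reads in windows passing the filter given below, 89.8% and 91.1%, against 77.9% to 86.1% in the other 4 libraries. The median start of all labelled loci was lowest in them too, at 0.0359 and 0.0323 RPKM, against 0.0506 to 0.0753 RPKM in the other 4 libraries. The part of these library differences in the values of single genes was not tested.

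IL1A, CXCL2 and CCL5 had starts above the median of all labelled loci. IL1A, an alarm cytokine, had 0.0308, 0.116 and 0.0559 RPKM at 5 months and 0.0685, 0.0138 and 0.12 RPKM at 16 months. CCL5, which draws T cells and eosinophils, had 0.164, 0.187 and 0.0958 RPKM at 5 months and 0.139, 0.124 and 0.103 RPKM at 16 months, the highest of the LPS ligands. Its last labelled window reached 0.31 ± 0.101 RPKM (SD, n = 6). CXCL2, which draws neutrophils, had 0.0769, 0.167 and 0.0586 RPKM at 5 months and 0.0954, 0.134 and 0.0684 RPKM at 16 months. The CXCL2 label runs over 42 windows, however, and its first coding sequence lies 126 kb after the label begins, where the window and its upstream neighbour had 0.0217 RPKM. In all 8 loci the 2 ages overlapped.

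**Figure D2:**
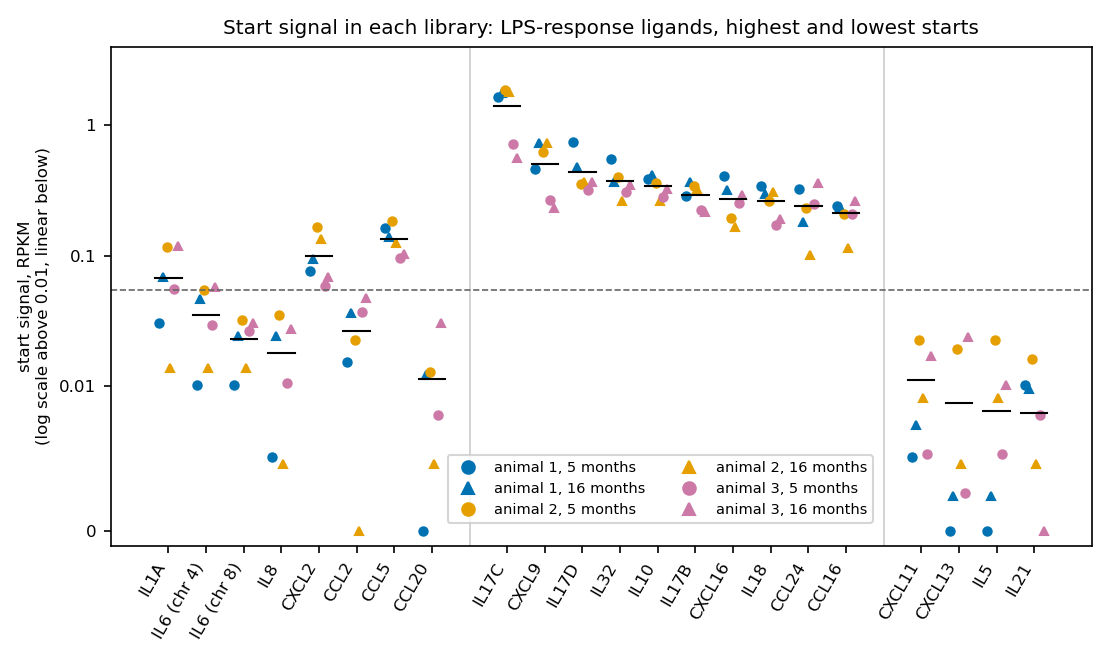
Start signal in RPKM (y axis, logarithmic above 0.01 and linear below) in each of the 6 libraries for the 8 loci of the LPS ligands (left), the 10 ligand loci with the highest starts (middle) and the lowest starts outside the LPS list (right), with color for the animal, symbol for the age and a black bar for the mean. The dashed line is the median of all labelled loci, 0.0545 RPKM, and per matched read IL17C and CXCL9 have lower values in both libraries of animal 3 than in the other 4.

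The highest starts belonged to IL17C, an epithelial cytokine that acts on neighbouring cells, to CXCL9, and to IL17D. IL17C (chromosome 18, 13922798 to 13928797) had 1.67, 1.86 and 0.724 RPKM at 5 months and 1.79, 1.82 and 0.564 RPKM at 16 months in animals 1, 2 and 3. The ages overlapped, and both libraries of animal 3 lay below the other 4. The signal continued across the window before the gene, at 1.57 ± 0.629 RPKM, which carries the label of ZC3H18, the gene's first window, at 1.24 ± 0.573, and its last, at 1.05 ± 0.461 (SD, n = 6).

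A start can take its signal from a neighbour. This touched 12 loci whose upstream window carries the label of a gene outside the members, and CCL16, whose upstream window is labelled CCL14. CXCL9 (chromosome 6, 92599982 to 92605981), a T cell chemokine, had 0.51 ± 0.225 RPKM at its start, of which the first window held 0.0234 and the upstream window, labelled ART3, 0.997 RPKM. IL18 (chromosome 15, 22798857 to 22828856), an IL1 family cytokine, likewise had 0.00322 RPKM in its first window and 0.523 RPKM in the upstream window, labelled TEX12. CXCL16 (chromosome 19, 27249475 to 27255474), a membrane-bound chemokine, had 0.102 and 0.444 RPKM, the latter labelled ZMYND15. IL17D (chromosome 12, 36075122 to 36111121) had 0.36 RPKM in its first and 0.52 RPKM in the upstream window, labelled IFT88. Without the 12 loci the median start was 0.0574 RPKM.

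Other high starts held signal of their own. IL32 (chromosome 25, 2491801 to 2497800), a proinflammatory cytokine of leukocytes and epithelium, had 0.452 RPKM in its first and 0.74 RPKM in its second window. IL10 (chromosome 16, 4401181 to 4407180) had 0.454 and 0.541 RPKM, and IL17B (chromosome 7, 62769746 to 62775745) had 0.541 and 0.692 RPKM, with 0.0466 RPKM upstream. CCL24 (chromosome 25, 34578101 to 34584100), which draws eosinophils, had a start of 0.242 ± 0.0937 RPKM. CCL16 (chromosome 19, 14780675 to 14789674) had 0.212 ± 0.052 RPKM, with an upstream window that is the body of CCL14. At the other end stood IL21 with 0.00812, IL5 with 0.0083, CXCL13 with 0.00883, CXCL11 with 0.0111 and CCL20 with 0.0114 RPKM. IL21 helps B cells, IL5 supports eosinophils, CXCL13 draws B cells into follicles and CXCL11 draws activated T cells. The spread between libraries of these 5 starts was of the order of their level, from 0.00546 to 0.0106 RPKM (SD, n = 6).

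Bodies were in general higher than starts. The start lay below the body in 33 of 58 loci (56.9%), against 67.1% of 19864 labelled loci, and below it in all 6 libraries in 21 loci (36.2%), against 47.4% of all. It lay above the body in all 6 libraries in 8 loci (13.8%), against 16.4% of all. Among all labelled loci of at most 5 windows, the start lay below the body in 62.4%, and in all 6 libraries in 41.8%. The highest bodies were IL17C with 1.05, IL32 with 0.74, IL17B with 0.692, CCL17 with 0.677, IL25 with 0.602, IL10 with 0.541, IL34 with 0.407, CCL24 with 0.4, CXCL12 with 0.379 and CCL25 with 0.375 RPKM. Of these, CCL17 (chromosome 18, 25499798 to 25505797), a skin-homing chemokine of T cells, had 0.944, 0.502 and 0.511 RPKM at 5 months and 0.812, 0.562 and 0.732 RPKM at 16 months in its body, over a start of 0.0715 RPKM. IL25 (chromosome 10, 21382401 to 21388400), a type 2 cytokine of the IL17 family, had 0.554, 0.753 and 0.346 RPKM at 5 months and 0.773, 0.71 and 0.479 RPKM at 16 months over a start of 0.0886 RPKM. CXCL12, which holds leukocytes and stem cells in tissue and is made by fibroblasts, had 0.549, 0.251 and 0.319 RPKM at 5 months and 0.404, 0.267 and 0.486 RPKM at 16 months. Ages overlapped in all 3 of these bodies.

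Within loci of 2 or more labelled windows, the window with the most signal was the first in 15 of 58 and a later one in 43. The share over all labelled loci was not computed. A locus with more windows has more places for a later one to be the highest, so the split is not read as a trait of these genes. IL34, a ligand of the CSF1 receptor that sustains Langerhans cells, spans 21 windows on chromosome 18 (1547198 to 1610197) and its coding sequence begins 48 kb after the label does. Its start had 0.0781 RPKM, while 6 of its windows were above 0.5 RPKM, with the highest at 1.68 ± 0.571 RPKM (SD, n = 6), 54 kb from the first window. The window of its first coding sequence and the one before it had 0.47 RPKM. CCL25, which guides T cells to the gut, had 0.0669 RPKM at the start of its 9 windows and 1.47 ± 0.4 RPKM in the last of them, from 18001246 to 18004245 on chromosome 7. Its coding sequence begins 21 kb into the label, where the start would have 0.414 RPKM. In IL17D the highest of 12 windows was also the last, with 0.981 ± 0.327 RPKM. In IL16, a T cell chemoattractant, the window after the first had 0.76 ± 0.365 RPKM.

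Long labels also held single windows of signal that carry no coding sequence. IL7, which sustains lymphocytes, spans 31 windows on chromosome 14 with a median of 0.0169 RPKM, and 1 window 18 kb from the first (44168947 to 44171946) had 0.378 ± 0.15 RPKM. It lies 12 kb from the nearest window of the label with coding sequence, and in 1 library the deepest pile held a fraction of 0.593 of its reads. CXCL2 had 0.52 ± 0.214 RPKM in 1 of its 42 windows (chromosome 6, 90772982 to 90775981), 78 kb from the first and 48 kb from the nearest with coding sequence, over a median of 0.0263 RPKM, and there the deepest pile held a fraction of up to 0.5. No window of IL33, an alarm cytokine of skin and vessels with 24 windows, passed the filter used for testing below.

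**Figure D3:**
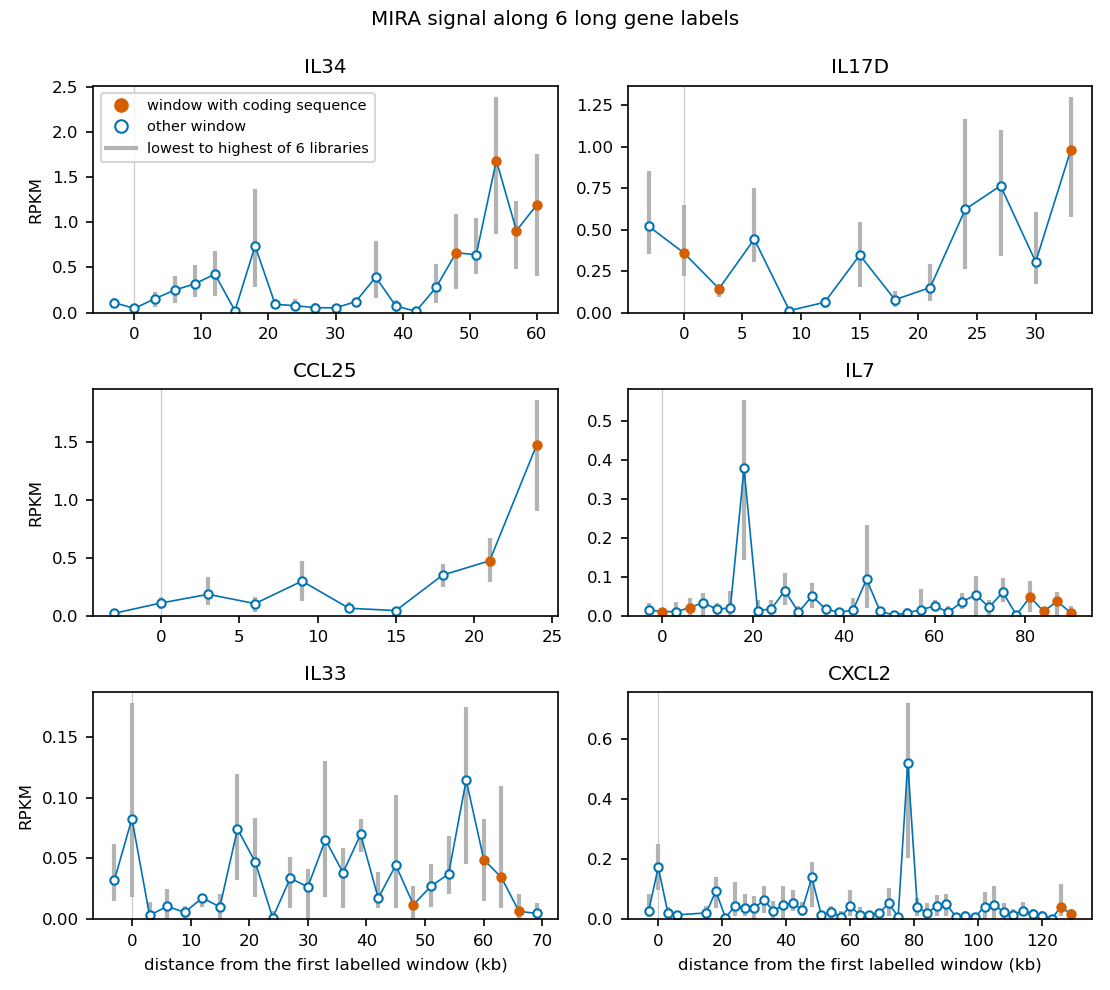
Mean RPKM of 6 libraries in each window (y axis) by distance from the first labelled window along the gene's strand (x axis, kb) for IL34, IL17D, CCL25, IL7, IL33 and CXCL2, with the upstream window at the left, filled points for windows of the gene with coding sequence and grey bars from the lowest to the highest library. Signal rises to 1.68 RPKM at the far end of IL34 and to 1.47 RPKM in the last window of CCL25, while IL7 and CXCL2 each have 1 high window within a low label.

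The age comparison asked whether signal at these genes differed between cultures of the same animals at 5 and 16 months. No ligand gene passed. In the edgeR quasi-likelihood test, blocked by animal, p-values were adjusted by Benjamini-Hochberg over all features, and with calls made at a false discovery rate (FDR) under 0.1 with at least a 2-fold change, 0 of 67 tested member windows were called, against 0.185% of all 104658 windows tested (194 windows). Of the gene starts, 0 of 40 tested were called, against 0.173% of 13883, and of the gene bodies, 0 of 40 tested, against 0.0175% of 17189. At such background shares, 0 calls among so few members do not set them apart. At an unadjusted p under 0.05 there were 3 windows, 2 starts and 0 bodies (4.48%, 5% and 0%), against 7.1%, 4.46% and 0.471% of all. The share of all bodies, 0.471%, is far below the 5% that a test gives where nothing differs. The body test was thus conservative, and its 0 calls say little. DESeq2 called 0 members in each of the 3 comparisons. The windows that were tested had at least 1 CPM, counts per M counted reads, in at least 3 libraries, which 67 of 373 member windows had, in 30 of the 67 loci, and starts and bodies at least 0.5 CPM. The other 27 starts were not tested.

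Log2 fold changes, positive where the 5-month cultures were higher, were small. Their median was 0.08 over the 67 windows (0.02 over all windows tested), 0.06 over the 40 starts (−0.03 over all) and 0.01 over the 40 bodies (0.03 over all). In these fits no window, start or body of a ligand gene reached a 2-fold change. The precision was limited, with a median standard error of 0.28 for windows, 0.40 for starts and 0.48 for bodies, and the 95% interval lay wholly within 2-fold in 46 of 67 windows, 19 of 40 starts and 12 of 40 bodies. Scaling the starts by TMM factors taken from all starts moved the median of all starts to 0.10 and that of the ligand genes to 0.19, a shift of both.

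The lowest p in each comparison belonged to IL24, an IL10 family cytokine that acts on keratinocytes. Its middle window on chromosome 16 (4611181 to 4614180) had 3.86, 1.79 and 3.90 CPM at 5 months and 1.62, 0.991 and 3.25 CPM at 16 months in animals 1, 2 and 3, where the CPM count reads of tested windows alone and carry TMM factors. It was higher at 5 months in 3 of 3 animals, and the groups overlapped. Its log2 fold change was 0.78 ± 0.26 (SE) with an edgeR p of 0.00334 and an FDR of 0.29. Without animal 3 it was 1.10 with an FDR of 0.0692 and passed, and without animals 1 and 2 in turn the FDR was 1 and 0.706. The IL24 start had 0.287, 0.122 and 0.17 RPKM at 5 months and 0.113, 0.0876 and 0.14 RPKM at 16 months, a log2 fold change of 0.67 ± 0.32 with an FDR of 0.9998. Its body had 0.77 ± 0.43 with an FDR of 1. The window is part of the body and shares reads with it, while the start is made of other windows.

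Next among windows came IL16 (27592763 to 27595762 on chromosome 21), lower at 5 months in 3 of 3 animals with a log2 fold change of −0.54 ± 0.21 and an FDR of 0.473, and the isolated IL7 window, with the deep pile given above, lower at 5 months in 3 of 3 animals with −0.62 ± 0.29 and an FDR of 0.645. Windows of IL34 (1556198 to 1559197) and IL17D (36078122 to 36081121) were higher at 5 months in 3 of 3 animals by 0.43 ± 0.22 and 0.65 ± 0.34, with FDRs of 0.718 and 0.73. Of 67 windows, 10 were higher at 5 months in 3 of 3 animals (14.9%, against 14.6% of all windows) and 6 were lower (8.96%, against 11.4%).

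Among starts, IL25 had 0.149, 0.0965 and 0.0985 RPKM at 5 months and 0.0563, 0.0184 and 0.113 RPKM at 16 months. It had the largest fold change of the starts tested, 0.97 ± 0.49 on the log2 scale, with an unadjusted p of 0.0455. Fitted without the filter on low counts it was 1.11 ± 0.41, past 2-fold, with an unadjusted p of 0.00729 and an FDR of 1. CCL22, a chemokine of macrophages and dendritic cells that draws T helper and regulatory T cells, had 0.164, 0.245 and 0.13 RPKM at 5 months and 0.12, 0.0737 and 0.123 RPKM at 16 months. Its groups did not overlap, which held for 1 of the 40 starts tested (2.5%) and for 4.17% of all starts tested, with a log2 fold change of 0.65 ± 0.34 and an unadjusted p of 0.0534. CXCL17, a mucosal chemokine, had 0.58 ± 0.32 and CCL24 0.38 ± 0.28. The FDR was 0.9998 for each of these 4 starts. The bodies with the lowest p after IL24, each with an FDR of 1, were IL12B with 0.94 ± 0.56, IL19 with 0.61 ± 0.45, IL7 with −0.37 ± 0.35 and CXCL14 with 0.47 ± 0.48. Of the starts, 6 were higher at 5 months in 3 of 3 animals and 0 were lower in 3 of 3, against 9.7% and 10.6% of all starts tested.

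Of the LPS ligands, 3 starts could be tested. CCL5 had a log2 fold change of 0.16 ± 0.34, with a 95% interval from −0.51 to 0.83. CXCL2 had −0.15 ± 0.43, from −0.99 to 0.69, and IL1A −0.03 ± 0.61, from −1.22 to 1.16. The CXCL2 start tested is where its label begins, 126 kb before its first coding sequence. Fitted without the filter, the start of IL8 had −0.22 ± 0.87, from −1.92 to 1.49, that of CCL20 −1.01 ± 1.08, from −3.12 to 1.11, that of CCL2 0.22 ± 0.72, from −1.20 to 1.64, and that of IL6 on chromosome 4 −0.29 ± 0.63, from −1.52 to 0.95. At this depth the intervals of IL8, CCL20, CCL2, IL6 and also IL1A include changes of 2-fold, and that of CXCL2 nearly does, at −0.99.

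**Figure D4:**
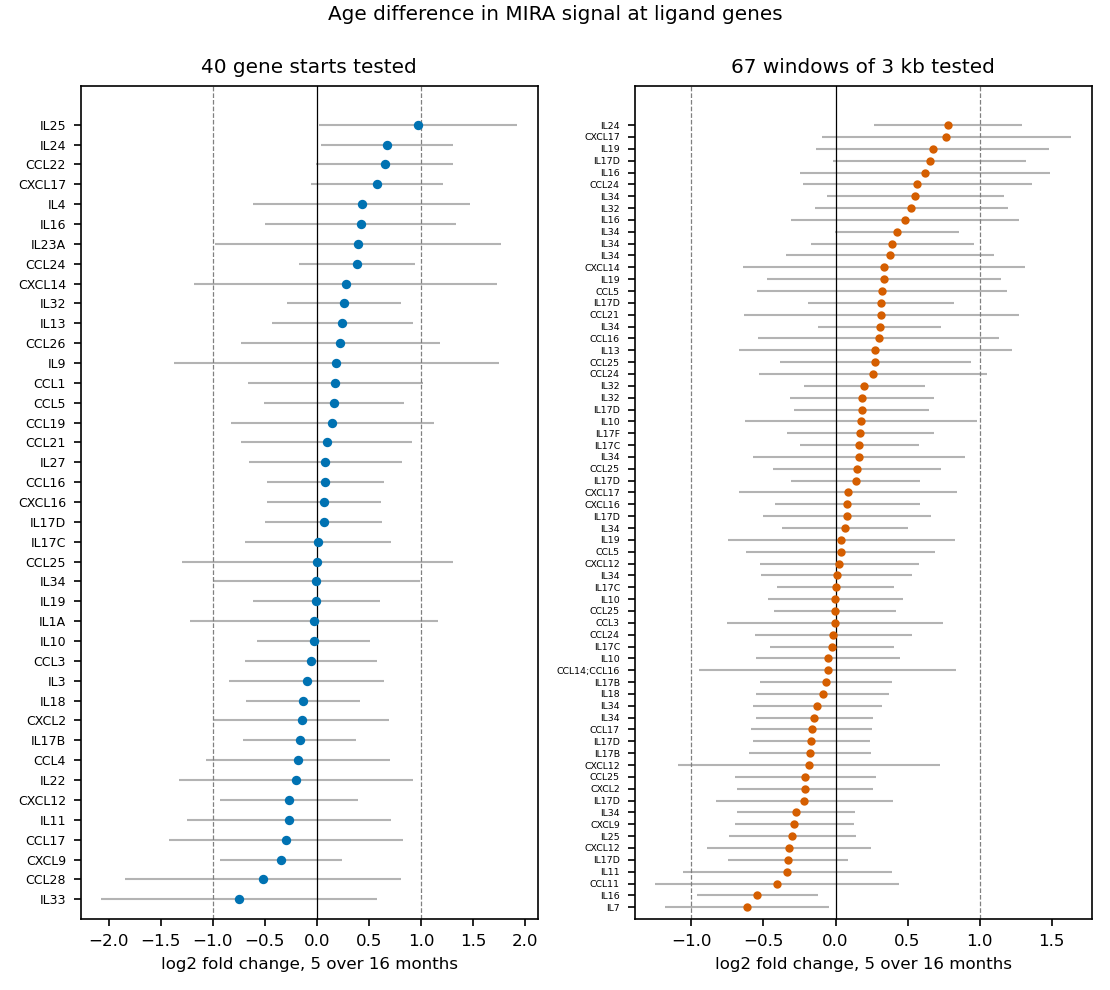
Log2 fold change of the 5-month over the 16-month cultures (x axis) with its approximate 95% interval for the 40 ligand gene starts (left) and the 67 windows of 3 kb (right) that were tested, sorted by value and named by gene. Dashed lines mark a 2-fold change, which no point reaches, and IL24 heads the windows at 0.78.

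No other gene list on the same pathways had a start or body called by age. Single windows of these lists were not looked at here. Of 54 labelled loci of interleukin and chemokine receptors and antagonists, 43 starts and 47 bodies were tested and 0 were called in either direction. The nearest was the start of CXCR2, a receptor of IL8, with a log2 fold change of 1.05 ± 0.28 and an FDR of 0.105. Of the receptor and antagonist bodies, CXCR7 had the lowest p, with 0.77 ± 0.28 and an unadjusted edgeR p of 0.00614. The study itself lists a 3 kb window in CXCR7 among its regions differing by age, higher in the younger cultures. Of 13 NF-kappaB loci, 5 starts and 13 bodies were tested and 0 called, and of 15 loci of other secreted inflammatory proteins, such as TNF and colony-stimulating factors, 13 starts and 7 bodies were tested and 0 called. In levels, given for loci on chromosomes 1 to 29, the starts of receptors and antagonists had a median of 0.102 RPKM, those of NF-kappaB genes 0.0411 RPKM and those of the other secreted proteins 0.222 RPKM, beside 0.0674 RPKM for the ligands. NF-kappaB bodies had a median of 0.437 RPKM. Of the marker lists, 0 starts and 0 bodies were called, with 2, 5, 5 and 3 starts tested for fibroblast, leukocyte, keratinocyte and endothelial markers.

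In the main fit animals differed at more of these windows than ages did, though both the number called and which animal was higher depended on the scaling. The 2-fold limit here applies to the range over 3 animals, which passes it more readily than a single age difference does. In the quasi-likelihood test of the animal terms, called at an FDR under 0.1 and at least 2-fold between the highest and the lowest animal, 28 of 67 member windows were called (41.8%), against 20.6% of all windows tested and 20.5% of the 89840 windows in the same range of mean CPM. The 28 windows lay in 15 loci, with 8 in IL34, 3 in IL16, 2 each in CCL24, CXCL17, IL17D and IL19, and 1 each in IL10, IL17C, IL24, CCL11, CCL16, CCL21, CCL25, CXCL12 and CXCL14. Windows of 1 locus are neighbours and are not independent. Without animal 3 the count was 2 of 62 windows tested (3.23%, against 1.43% of all), without animal 1 it was 28 of 69 (40.6%, against 20.1%) and without animal 2 it was 16 of 73 (21.9%, against 14.4%).

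With the TMM factors from the windows tested, animal 3 was above the mean of the other animals in 22 of the 28 windows and below it in 6, a direction that turned for many windows in the other scalings given below. The same split over all windows called was 18027 to 3485, so it is not particular to the ligand windows. The lowest p belonged to the middle window of CXCL12 (chromosome 28, 45412965 to 45415964), with 3.25 and 4.27 CPM in the 5- and 16-month libraries of animal 3, 1.29 and 1.93 CPM in those of animal 1 and 1.16 and 1.09 CPM in those of animal 2. The animals were 3.25-fold apart with an FDR of 0.000147. Next were 3 neighbouring windows of IL34 from 1595198 to 1604197 and the first window of CCL21, which guides dendritic cells into lymph vessels. In the IL34 window from 1598198, animal 3 had 4.29 and 2.59 CPM, animal 1 1.84 and 1.17 CPM, and animal 2 1.06 and 0.941 CPM, and in 1 library the deepest pile of overlapping reads held a fraction of 0.684 of its reads. CCL21 (77421587 to 77424586 on chromosome 8) had 2.04 and 2.84 CPM in animal 3, 0.92 and 0.549 CPM in animal 1, and 0.563 and 0.248 CPM in animal 2, a 5.998-fold range. At the first window of IL17C animal 3 was lower, with 4.72 and 3.30 CPM in animal 3, 7.04 and 6.97 CPM in animal 1 and 9.04 and 8.82 CPM in animal 2. The median over the called ligand windows was 1.48 CPM where animal 3 was higher and 3.998 CPM where it was lower, and over all windows called it was 1.81 and 4.89 CPM.

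Libraries of animal 3 stood apart over the whole genome, and the direction turned with the scaling. With TMM factors from the windows tested, animal 3 was above the others in 37 of 67 member windows, with a median log2 difference of 0.14, against −0.02 over all windows tested. Per matched read it was above in 22 of 67, with a median of −0.48, against −0.63 over all windows tested, and with TMM factors from all windows in 21 of 67, with −0.51 against −0.72. In the last scaling 2 of 67 member windows were called (2.99%), against 0.697% of all, and with library size only 24 of 67 (35.8%), against 30% of all. Both libraries of animal 3 lay below all of the other 4 at the first window of IL17C per matched read also, with 0.58 and 0.445 RPKM against 1.43 to 1.76 RPKM. At the CXCL12 window per matched read they lay at 0.399 and 0.575 RPKM, against 0.203 to 0.396 RPKM, and at the IL34 window from 1598198 the animals overlapped. What sets animal 3 apart was not tested, and with 1 culture per animal and age the animal and its culture cannot be told apart.

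**Figure D5:**
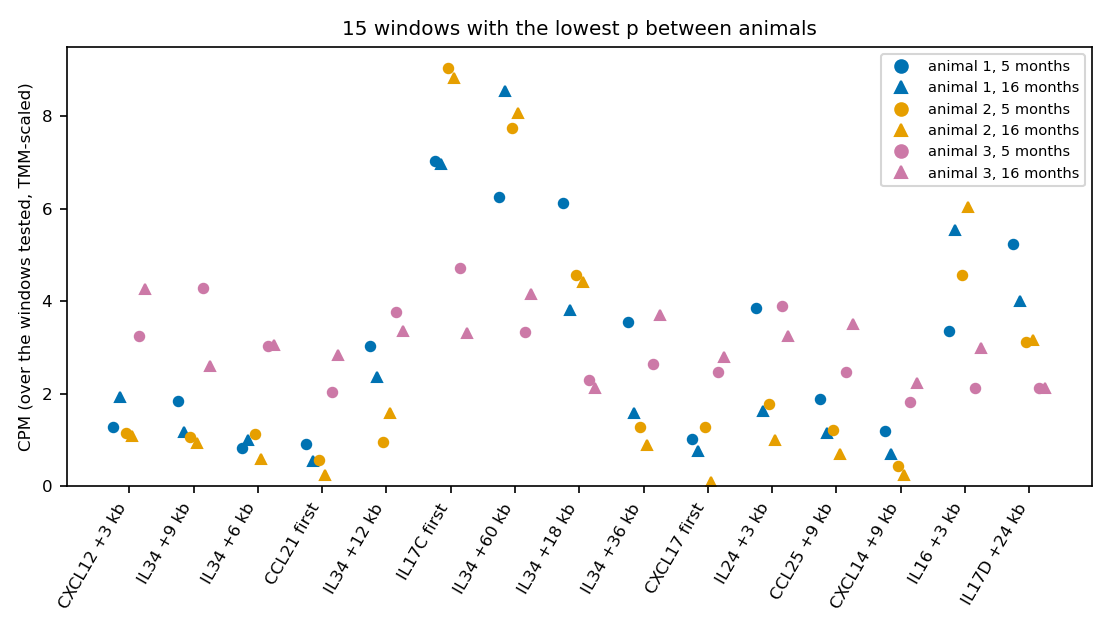
CPM counting reads of tested windows alone, with TMM factors (y axis), in each of the 6 libraries for the 15 ligand gene windows with the lowest p between animals, named by gene and distance from its first labelled window, with color for the animal and symbol for the age. In this scaling animal 3 lies above the others in windows such as those of CXCL12 and CCL21 and below them in the first window of IL17C, and per matched read it was above in 22 rather than 37 of the 67 member windows.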

How the data were processed

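MIRA-Seq counts of 6 libraries were analyzed, each assigned to animal and age by its labels. The authors aligned filtered reads to UMD v3.1 with NextGENe 2.3.4 and deposited raw read counts of sequential 3 kb windows, with gene labels. The deposited maximum coverage of a window, a signal not scaled to depth, was used only to look for stacked reads. How PCR copies and reads matching several places were handled is a step not given in the sources used. No duplicates were removed, so the counts may hold copies. Errors come from the spread between libraries that is left after the animal block.

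Counts were tested with edgeR 4.0.16 in R 4.3.3 (quasi-likelihood, TMM, animal as block), on windows with at least 1 CPM in 3 libraries, and on starts and bodies with at least 0.5 CPM, CPM being over all counted reads. The spread was estimated across features and the block left 2 residual degrees of freedom. DESeq2 1.42.0 was an alternative. Levels are RPKM over matched reads, described without tests. Standard errors are the fold change over the root of F, and 95% intervals a normal approximation from them. The animals gave a library at each age, so ages were paired, and deviations from the age means correlated by 0.294, 0.547 and 0.741 within animals 1, 2 and 3.

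Members, lists and tests were chosen with earlier results of these data known. Genes named were the LPS ligands, the members with the 10 highest and 5 lowest starts, the 10 highest bodies, the 5 lowest p of each test, those called and those labelled more than 1 time. Others were named after their values were seen.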

Additional observations from a re-analysis of the deposited data

How the results depend on the processing

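The count of ligand gene windows, starts and bodies called by age was 0 under every alternative run, with 1 exception, the window scan without replicate 3 (animal 3), which called the IL24 window, so leaving out replicates gave 0 to 1. With no replicate block it was 0 in all 3 comparisons, by the quasi-likelihood and the likelihood-ratio test. The count of windows called between animals was 28 and ranged from 2 to 28 when a replicate was left out. It was 16 of 67 (23.9%, against 11.8% of all windows tested) with the DESeq2 likelihood-ratio test, run because the Wald test takes 1 coefficient. It was 2 of 67 (2.99%, against 0.697%) with TMM factors from all windows. With no CPM filter all 373 member windows were tested and 0 were called, against 0.025% of all windows. The median start signal was 0.11 RPKM over reads counted in windows and 0.119 RPKM as a mean over members, and the median body 0.137 and 0.178 RPKM. Among named genes not called by age, the log2 fold change of the IL1A start turned from −0.03 to 0.029 with DESeq2, 0.028 with library size only, 0.10 with TMM factors from all features and with no filter, and 0.47, −0.99 and 0.64 without replicates 1, 2 and 3. That of the CXCL2 body was between −0.43 and 0.066 and that of the CCL5 body between −0.13 and 0.35 when a replicate was left out, each with the other sign without replicate 1. Of 304 values recomputed for named genes, 282 kept their direction and call. The causes were not tested.

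Depth limits what can be seen: 27 of 67 starts were not tested, and 9 starts had 0 reads in at least 1 library, so small changes at the lowest genes were not detectable.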
